A study of Mus musculus with 10 samples.

Results

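Transcripts of 10 genes of the poly(ADP-ribose) polymerase (PARP) family were examined in leukemic spleens of mice: Parp1, Parp2, Parp3, Parp6, Parp8, Parp9, Parp10, Parp11, Parp12 and Parp14. The members were taken by gene symbol from the deposited table, which holds 20813 genes, and all 10 were found in it. They were read in 3 classes: the DNA-damage PARPs (Parp1, Parp2 and Parp3), the interferon-inducible PARPs (Parp9, Parp10, Parp11, Parp12 and Parp14) and the remaining pair, Parp6 and Parp8. The classes follow the known roles of the genes, and they were formed with earlier results of these data known.

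The samples came from sublethally irradiated mice that had been injected intravenously with T-cell acute lymphoblastic leukemia (T-ALL) carrying a conditional Sirt1 knockout allele, strain C57BL/6. One group of 5 mice was given tamoxifen, 3 mg per mouse in corn oil by intraperitoneal injection, and is labelled Sirt1 deleted. The other group of 5 mice, labelled control, was given corn oil only, and its leukemias carried the same conditional allele. Genotype and drug change together in every sample and cannot be told apart, and the labels name neither the recombinase nor the number of starting leukemias. Nothing in the labels says whether the leukemias are separate clones, so the p-values measure the spread between these spleens. The spleens were dispersed and red cells were lysed, and the labels give no step that separates host cells from the leukemia.

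PARP proteins transfer ADP-ribose from NAD to proteins or nucleic acids. PARP1 and PARP2 bind broken DNA, build poly(ADP-ribose) chains there and recruit repair factors, and PARP3 acts at double-strand breaks. Most of the other members add single ADP-ribose units, and several of them are induced by interferon and restrict viruses. NAD is also the co-substrate of the SIRT1 deacetylase, whose gene is the one targeted in these leukemias.

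Values are counts per gene divided by the authors' DESeq normalization factors, called normalized counts here. Sample totals lay between 33.7 and 34.5 M (M, mega), and an approximate depth read from the spacing of low values was 31.4 to 38.5 M reads. Sirt1 itself measured 1715 to 2097 in the labelled Sirt1-deleted samples and 1735 to 1909 in controls, with a log2 difference of 0.05 (limma adjusted p = 0.568), so the gene-level value does not check the label. The labelled tissue was checked on 13 T lineage markers, whose summed value was 187594 to 204925 in labelled Sirt1-deleted samples and 208371 to 219467 in controls. By the test described below, 1 of these markers rose and 4 fell, with a median log2 difference of -0.02. Over all tested genes, 16.8% were called higher and 19.4% lower. Tcf7, a T cell transcription factor with the largest values of the list, was 58426 on average in labelled Sirt1-deleted samples and 77942 in controls. Without Tcf7, left out after its values were seen, the sums were 138218 to 141008 and 130445 to 140628 and overlapped. Labelled Sirt1-deleted replicate 10 stood apart from its group. It was the lowest of the 5 for 7 of the 10 PARP genes: Parp3, Parp6, Parp9, Parp10, Parp11, Parp12 and Parp14. Results are given without it where it matters. Since it was lowest for these 7 genes, leaving it out raises their differences by construction.

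Of the 10 PARP genes, 4 rose and 1 fell, and 5 did not pass the test. The 4 that rose, Parp9, Parp10, Parp12 and Parp14, are all in the interferon-inducible class, and the 1 that fell is Parp1. A gene was called when its adjusted p was under 0.05 (limma on log2 of the normalized count plus 1, Benjamini-Hochberg over 15276 tested genes), and differences are labelled Sirt1-deleted minus control on that log2 scale. All 10 members passed the filter on low values, a mean of at least 10. Group means are given ± SD over 5 samples. By this rule 36.1% of all tested genes were called, 16.8% as higher and 19.4% as lower. In the interferon-inducible class 4 of 5 genes were called higher and 0 lower, with a median log2 difference of 0.76. Zc3hav1, also counted as PARP13, is not among these 5 and did not pass (log2 difference -0.11, limma adjusted p = 0.162). Among the DNA-damage PARPs 0 of 3 were called higher and 1 lower, with a median of -0.08. The median over all tested genes was -0.00014. The groups did not overlap for the same 4 higher genes and for Parp1, 5 genes of 10. Of all tested genes 24.0% did not overlap, 11.1% with the labelled Sirt1-deleted samples higher and 12.9% with them lower.

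**Figure D1:**
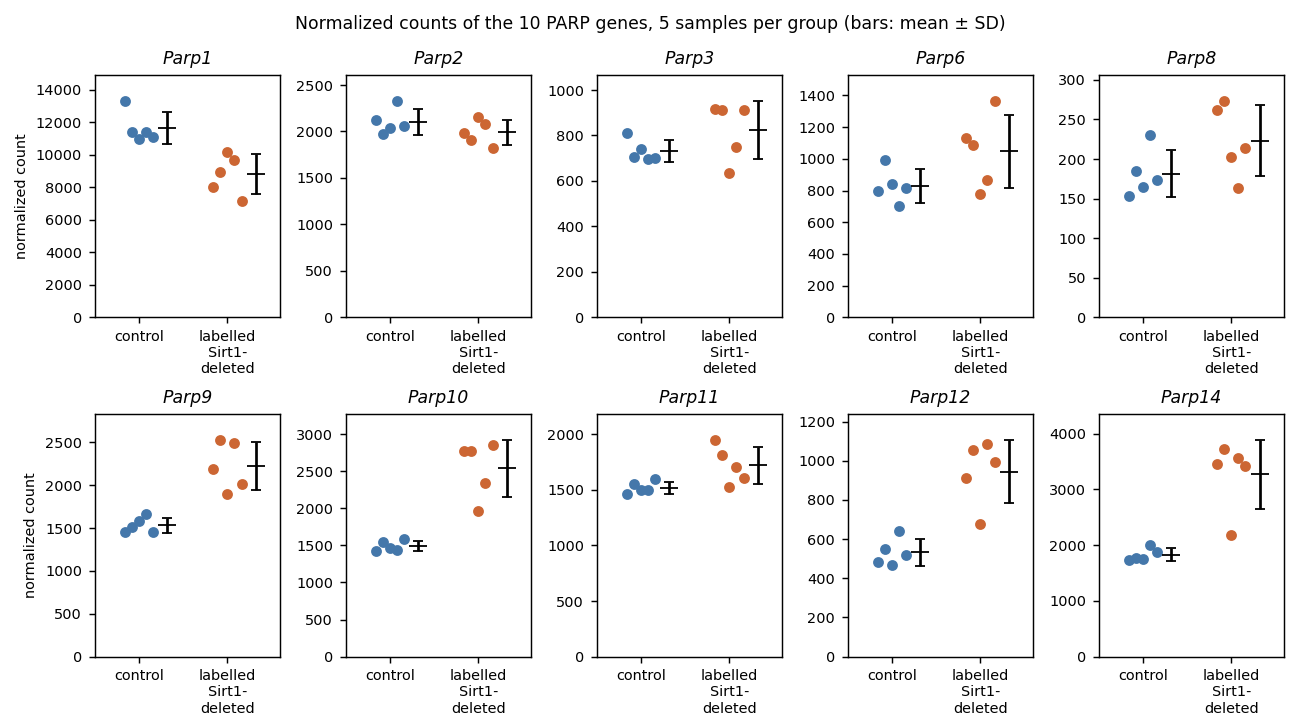
Normalized counts (vertical axes, from 0) of the 10 PARP genes in each of 5 control and 5 labelled Sirt1-deleted samples, 1 point per sample in order of replicate number, with mean ± SD as bars. For Parp9, Parp10, Parp12 and Parp14 every labelled Sirt1-deleted sample lies above every control, and for Parp1 every one lies below.

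Parp1 encodes the most active DNA-damage PARP (ENSMUSG00000026496.11, chr1:180568924-180601254 on the plus strand of GRCm38). In control replicates 2, 3, 4, 5 and 6 its normalized count was 13348, 11399, 10971, 11392 and 11088. In labelled Sirt1-deleted replicates 7, 8, 10, 11 and 12 it was 8044, 8926, 10210, 9694 and 7192. All labelled Sirt1-deleted samples were below the lowest control, and replicates 10 and 11 came closest to it. The mean fell from 11639 ± 973 to 8813 ± 1220, a log2 difference of -0.41 (SE 0.09, 95% interval -0.60 to -0.21, limma adjusted p = 0.00485; exact two-sided permutation p = 0.00794, the smallest that 5 against 5 samples allow). This is 0.753 times the control level. Of all tested genes, 25.8% had a larger difference in size.

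The fall of Parp1 kept its call under the 20 alternative settings run, with log2 differences from -0.46 to -0.34. Control replicate 2 was set apart from the other controls as the highest, and without it the difference was -0.36. In bulk tissue, fewer cells of a type and less RNA per cell cannot be told apart, which holds for every gene here. The summed T lineage markers were lower in each labelled Sirt1-deleted sample than in any control with Tcf7 and overlapped between groups without it. Their part in the fall of Parp1 was not tested.

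Parp2, which shares DNA-break signalling with Parp1 (ENSMUSG00000036023.6, chr14:50807841-50821301), measured 1825 to 2154 in the labelled Sirt1-deleted samples and 1968 to 2333 in controls. The ranges overlapped, and the log2 difference of -0.08 did not pass (SE 0.06, 95% interval -0.21 to 0.05, limma adjusted p = 0.326). Parp3 (ENSMUSG00000023249.15, chr9:106470322-106476949 on the minus strand) measured 811, 703, 742, 698 and 699.6 in control replicates 2 to 6. Its values in labelled Sirt1-deleted replicates 7, 8, 10, 11 and 12 were 916, 912, 633, 750.3 and 914. Replicates 7, 8 and 12 lay above the highest control and replicate 10 lay below the lowest. The log2 difference was 0.16 (SE 0.10, limma adjusted p = 0.241), and without replicate 10 it was 0.25 and passed (limma adjusted p = 0.0248). Of the 10 fits leaving out 1 sample, no other passed, and the differences ran from 0.12 to 0.25. The fall within the DNA-damage class was thus called for Parp1 alone of the 3 genes, and the differences among these genes were not tested.

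Parp14 encodes a large PARP with macrodomains, modules that bind ADP-ribose (ENSMUSG00000034422.14, chr16:35832874-35871544 on the minus strand). Its normalized count in control replicates 2 to 6 was 1735, 1768, 1753, 2003 and 1878. In labelled Sirt1-deleted replicates 7, 8, 10, 11 and 12 it was 3455, 3732, 2177, 3561 and 3411. Replicate 10 exceeded the highest control only narrowly, while the other 4 stood close together. The mean rose from 1827 ± 113 to 3267 ± 622, a log2 difference of 0.81 (SE 0.12, 95% interval 0.55 to 1.08, limma adjusted p = 8.04e-04, exact permutation p = 0.00794). Without replicate 10 the difference was 0.95, and over the 10 fits leaving out 1 sample it ran from 0.76 to 0.95.

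Parp9, whose product has macrodomains and works with the ubiquitin ligase DTX3L, lies near Parp14 on the same chromosome (ENSMUSG00000022906.15, chr16:35938470-35972605 on the plus strand). Controls 2 to 6 measured 1449, 1509, 1587, 1660 and 1455, and labelled Sirt1-deleted replicates 7, 8, 10, 11 and 12 measured 2185, 2529, 1893, 2491 and 2011. Replicates 8 and 11 were the highest and replicate 10 the lowest of a group that stayed clear of the controls. Parp9 rose from 1532 ± 90.5 to 2222 ± 283, a log2 difference of 0.53 (SE 0.08, 95% interval 0.35 to 0.71, limma adjusted p = 9.42e-04).

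Dtx3l, the partner gene of Parp9, is transcribed from the opposite strand at the same locus (ENSMUSG00000049502.17, chr16:35926511-35939151), and the annotated exons of the pair overlap by 458 bases. Between the groups it did not rise as Parp9 did. Within the labelled Sirt1-deleted group, replicates 8 and 11 were the highest for both genes. The lowest was replicate 12 for Dtx3l and replicate 10 for Parp9. The normalized count of Dtx3l was 2730 ± 316 in labelled Sirt1-deleted samples and 2805 ± 109 in controls, with values of 2344 to 3098 against 2678 to 2913. The log2 difference of -0.05 (SE 0.07, limma adjusted p = 0.654) was within the spread between samples, and its sign turned under other scalings. The libraries were strand-specific per the labels, but whether the quantification used strand is not given in the sources used here, so reads of the overlap could have gone to either gene.

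Parp10 encodes a mono-ADP-ribosyltransferase (ENSMUSG00000063268.12, chr15:76231174-76243441 on the minus strand). Its normalized count was 1420, 1541, 1462, 1440 and 1581 in control replicates 2 to 6. It was 2777, 2774, 1957, 2336 and 2849 in labelled Sirt1-deleted replicates 7, 8, 10, 11 and 12. Replicates 10 and 11 were lower than the other 3, and all 5 exceeded the controls. The rise was from 1488 ± 69.0 to 2538 ± 383, a log2 difference of 0.76 (SE 0.09, 95% interval 0.55 to 0.96, limma adjusted p = 3.56e-04). By p-value it stood at place 113 among all tested genes, ahead of the other PARP genes. Its annotated exons share 205 bases on the same strand with Plec, so some reads may be divided between these genes.

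Parp12, a zinc-finger PARP that acts against several RNA viruses (ENSMUSG00000038507.6, chr6:39086410-39118349 on the minus strand), measured 485, 550, 468, 643 and 519 in control replicates 2 to 6. The labelled Sirt1-deleted replicates 7, 8, 10, 11 and 12 measured 914, 1055, 679.8, 1083 and 994. Only a small gap separated replicate 10 from control replicate 5. The mean rose from 533 ± 69.2 to 945 ± 162, with a log2 difference of 0.81 (SE 0.13, 95% interval 0.54 to 1.09, limma adjusted p = 9.24e-04). In fold terms, Parp12 and Parp14 were each 1.76 times the control level, Parp10 was 1.69 times and Parp9 was 1.44 times. All 4 rises kept their call under the 20 alternative settings.

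Parp11 was the interferon-inducible PARP with the smallest difference (ENSMUSG00000037997.12, chr6:127446840-127494261 on the plus strand). Its product is a mono-ADP-ribosyltransferase. Control replicates 2 to 6 measured 1460, 1552, 1496, 1499 and 1596, and labelled Sirt1-deleted replicates 7, 8, 10, 11 and 12 measured 1951, 1814, 1523, 1708 and 1611. Replicate 10 fell inside the control range, and the other 4 lay above the highest control. The log2 difference was 0.17 (SE 0.07, 95% interval 0.03 to 0.32) and did not pass (limma adjusted p = 0.0596; unadjusted exact permutation p = 0.0317). It passed without replicate 10 (0.22, limma adjusted p = 0.0163), after upper-quartile rescaling (0.23, limma adjusted p = 0.0183), after quantile normalization (0.24, limma adjusted p = 0.0156) and with sample weights (0.22, limma adjusted p = 0.0108). Of the 10 fits leaving out 1 sample, only that without replicate 10 passed, and the differences ran from 0.13 to 0.22.

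**Figure D2:**
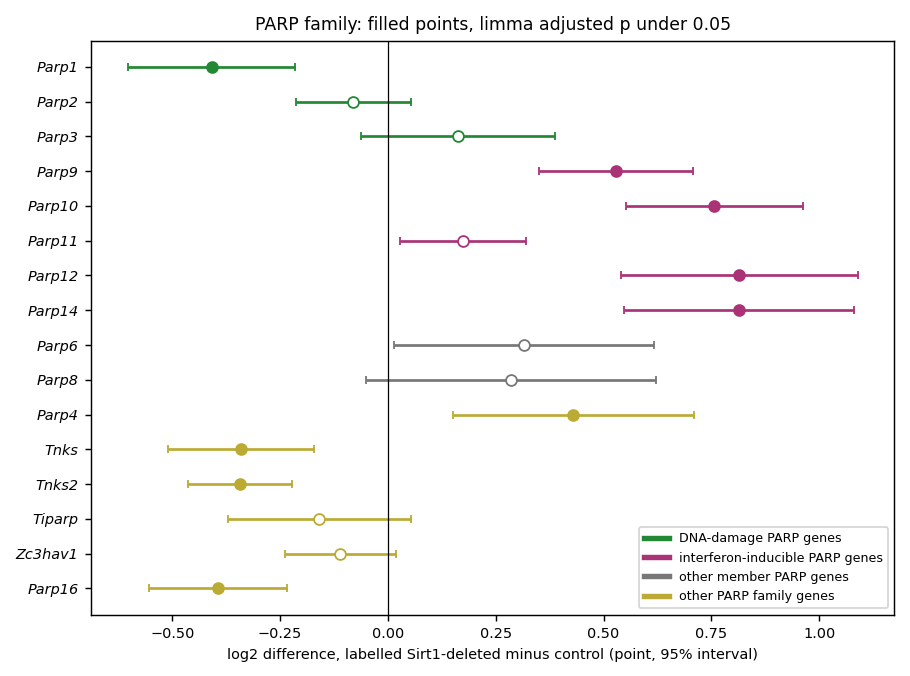
Log2 difference (labelled Sirt1-deleted minus control, horizontal axis) with its 95% interval for the 10 PARP genes and 6 further genes of the family. Filled points passed the limma test; Parp12 and Parp14 lie farthest right at 0.81 and Parp1 farthest left at -0.41.

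Interferon-stimulated genes often carry an interferon-stimulated response element (ISRE) near their start, bound by a complex that contains STAT2 and IRF9. The RefSeq promoter windows (build GRCm38.p6) were searched over the 250 bases before each annotated start for its core on either strand, taken as the half-site GAAA followed after 2 bases of any kind by a second GAAA (TTTC spaced likewise on the other strand). Windows were matched for 7 of the 10 PARP genes, 8 windows in all. Parp9, Parp10 and Parp14 matched no entry. Of the 8 windows 1 held the core, that of the upstream Parp11 start, while 2.98% of all 32851 windows did. The same search over 17 windows of interferon signalling and reference genes found it in 6. The 100 bases before the start of Parp11 (chr6:127446740-127446839, plus strand), Parp1 (chr1:180568791-180568890, plus strand) and Parp3 (chr9:106476950-106477049, minus strand) are shown because they set an interferon-class member beside members of the DNA-damage class. Capitals mark the ISRE core and nothing else.
Parp11: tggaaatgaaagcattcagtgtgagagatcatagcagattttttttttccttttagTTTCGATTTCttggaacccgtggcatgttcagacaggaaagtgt
Parp1: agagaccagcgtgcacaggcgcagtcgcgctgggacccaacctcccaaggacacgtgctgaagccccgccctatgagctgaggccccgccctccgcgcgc
Parp3: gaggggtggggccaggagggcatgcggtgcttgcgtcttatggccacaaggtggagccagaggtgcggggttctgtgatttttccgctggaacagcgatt

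The last base of the Parp11 core lies 35 bases before the start. A match to the gamma-interferon-activated site, taken as TTC and GAA with 3 bases of any kind between them, begins inside the core and ends 29 bases before the start, where 7.02% of all windows hold such a match. The second Parp11 start, farther into the gene, had neither. G and C made up 38% of the Parp11 stretch, 71% of that of Parp1 and 61% of that of Parp3. Outside the members and the interferon list, the core was found in Parp4, in overlapping copies, in Xrcc1 and in the second of the Rnf146 windows. The Parp11 letters are set beside those of Parp4, a further PARP gene, and of Stat2, Isg15 and Ifit1 from the interferon list. The 30 bases around a core are given for Parp11 (chr6:127446786-127446815), Parp4 (chr14:56575465-56575494), Stat2 (chr10:128270266-128270295), Isg15 (chr4:156200871-156200900, minus strand) and Ifit1 (chr19:34640794-34640823).
Parp11: ttccttttagTTTCGATTTCttggaacccg
Parp4: ctctGAAAAAGAAAGTGAAAgtcctgaacg
Stat2: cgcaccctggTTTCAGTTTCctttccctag
Isg15: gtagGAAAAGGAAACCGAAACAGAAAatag
Ifit1: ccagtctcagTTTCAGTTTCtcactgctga
These matches describe letters in a window and show no binding. Among the PARP genes with a window, Parp12 held no core and rose, Parp4 held it and rose, and Parp11 held it and did not pass. Outside the PARP genes and the interferon list, Rnf146 held it and fell, and Xrcc1 held it and rose. The Xrcc1 call was lost in 12 of 20 alternatives. In the interferon list, Stat2, Isg15, Ifit1, Ifit3 and Bst2 held a core and rose, and Rsad2 held it and did not pass. Irf1, Irf7, Irf9 and Ifngr2 held no core in their windows and rose, and Ifnar1, Ifngr1 and Jak1 held none and fell. The Irf1 call, at a log2 difference of 0.28, was lost in 8 of 20 alternatives. Ifnar2 and Tyk2 held none and did not pass.

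Parp6 and Parp8 encode related mono-ADP-ribosyltransferases with few known functions. Parp6 (ENSMUSG00000025237.16, chr9:59617284-59650285) measured 781 to 1368 in labelled Sirt1-deleted samples and 705 to 995 in controls. Its log2 difference of 0.32 (SE 0.14, limma adjusted p = 0.0933) did not pass, and without replicate 10 it was 0.41 (limma adjusted p = 0.0197). Of the 10 fits leaving out 1 sample, no other passed, and the differences ran from 0.21 to 0.41. Parp8 (ENSMUSG00000021725.9, chr13:116854820-117025537 on the minus strand) measured 164 to 274 in labelled Sirt1-deleted samples and 154 to 231 in controls. Its difference of 0.29 (SE 0.16, limma adjusted p = 0.166) did not pass under any of the 20 alternatives. Both genes were more variable between controls than the interferon class other than Parp12, with a coefficient of variation of 12.7% for Parp6 and 16.3% for Parp8 against 3.52% to 6.19% for Parp9, Parp10, Parp11 and Parp14.

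Spread within the groups differed by gene. Among the labelled Sirt1-deleted samples the coefficient of variation of Parp14 was 19.0%, against 6.19% in controls. For Parp10 these were 15.1% and 4.63%. Parp2 had 6.62% and 6.61%. The wider spread of Parp14 came with replicate 10, which was separated from the other 4.

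Averaged over the 5 interferon-inducible PARPs, log2 values relative to the control mean were 0.70, 0.78, 0.26, 0.70 and 0.64 in labelled Sirt1-deleted replicates 7, 8, 10, 11 and 12, and between -0.08 and 0.09 in controls. Over the 3 DNA-damage PARPs they were -0.10, -0.07, -0.12, -0.08 and -0.19, and between -0.06 and 0.12 in controls. The interferon class was thus highest in replicate 8 and lowest in replicate 10, and the DNA-damage class was lowest in replicate 12. No test was made on these averages, because the classes were formed with results known.

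**Figure D3:**
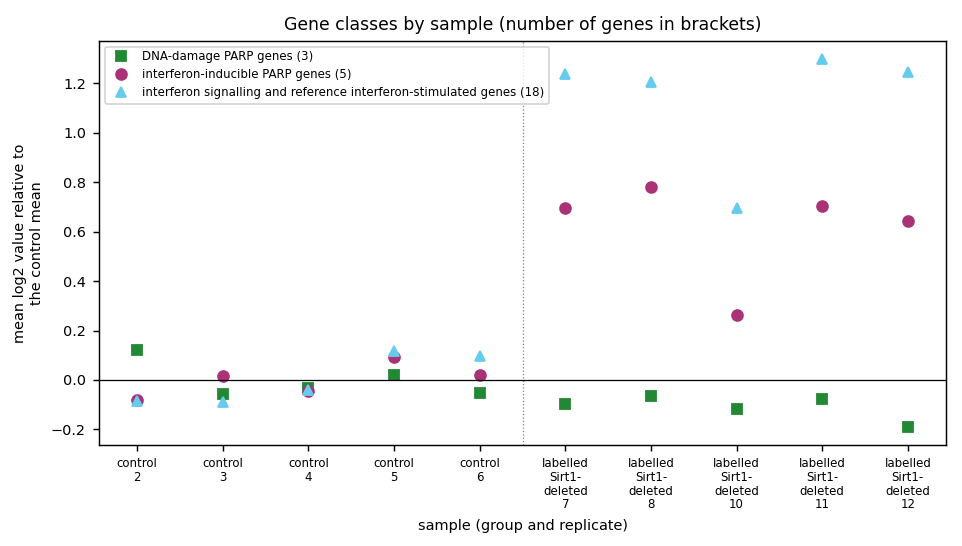
Mean log2 value relative to the control mean (vertical axis) of the DNA-damage PARPs, the interferon-inducible PARPs and 18 interferon signalling and reference genes in each of the 10 samples. Replicate 10 is the lowest labelled Sirt1-deleted sample for both interferon classes, at 0.26 for the PARPs and 0.70 for the reference genes.

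The interferon genes set beside the PARPs were 18: receptors, kinases, transcription factors and stimulated genes. Of them 12 rose, 3 fell and 3 did not pass, with a median log2 difference of 0.88. Of all tested genes, 16.8% were called higher and 19.4% lower. That interferon genes rise in these samples was known when the list was made, so it gives no independent support. The receptor genes moved in different directions. Ifngr1, a chain of the interferon-gamma receptor, fell by 0.42 on the log2 scale (limma adjusted p = 3.90e-04), and Ifnar1, a chain of the type I receptor, fell by 0.19 (limma adjusted p = 0.0212). Ifngr2 rose by 0.39 (limma adjusted p = 0.0211), and Ifnar2 had a difference of 0.02 (limma adjusted p = 0.857). The call of Ifnar1 was lost in 3 of 20 alternatives, among them without control replicate 2, and that of Ifngr2 in 3, among them without labelled Sirt1-deleted replicate 7 or 8.

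Jak1, the kinase both receptors use, fell by 0.35 (limma adjusted p = 0.00303). Stat2 and Irf9, whose products bind the ISRE together, rose: Stat2 from 1160 ± 117 to 1531 ± 176 and Irf9 from 1283 ± 164 to 2650 ± 448 normalized counts. Their log2 differences were 0.40 and 1.04 (limma adjusted p = 0.00573 and 2.96e-04). The differences of Parp10, Parp12 and Parp14, at 0.76 to 0.81, lay between these values. Classical stimulated genes had larger differences: Irf7 rose by 2.11, Isg15 by 2.22 and Ifit1 by 3.26. Rsad2, an antiviral radical enzyme, had a difference of 0.73 with wide spread and did not pass (limma adjusted p = 0.155).

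Marker genes of myeloid cells were also higher in the labelled Sirt1-deleted samples. Of all tested genes, 16.8% were called higher. Of 12 neutrophil markers 11 rose, and their summed value was 26786 to 91664 in labelled Sirt1-deleted samples and 8361 to 11610 in controls. Of 12 macrophage and monocyte markers 10 rose, with sums of 4802 to 6996 against 2644 to 3090. Both sums were lowest in replicate 10 and highest in replicate 8 among the labelled Sirt1-deleted samples. All 5 interferon-inducible PARPs were lowest in replicate 10, and so were Parp3 and Parp6 of the other classes. Of the interferon-inducible PARPs, Parp9 and Parp14 were highest in replicate 8, Parp11 in replicate 7, Parp12 in replicate 11 and Parp10 in replicate 12. B cell, NK and cytotoxic, and erythroid markers had no called gene among the 8, 5 and 8 tested, beside 36.1% of all tested genes called. The erythroid sum varied between samples, from 19772 to 95676 in labelled Sirt1-deleted samples and from 22877 to 80887 in controls. Within each group, Rsad2 was lowest and highest in the same samples as this sum, a link that was not tested. No listed marker found in the table was at 0 in all samples. The part of these cells in the rise of Parp9, Parp10, Parp12 and Parp14 was not tested.

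Of 6 further genes of the PARP family, 1 rose, 3 fell and 2 did not pass, with a median log2 difference of -0.25. Over all tested genes, 16.8% were called higher and 19.4% lower. Both tankyrases, which build poly(ADP-ribose) on axin and telomere proteins, fell: Tnks from 1770 ± 150 to 1399 ± 136 (log2 difference -0.34, limma adjusted p = 0.00608) and Tnks2 from 12841 ± 614 to 10135 ± 752 (log2 difference -0.34, limma adjusted p = 0.00115). Parp16, a PARP of the endoplasmic reticulum, fell from 590.4 ± 28.7 to 450.0 ± 35.9 (log2 difference -0.39, limma adjusted p = 0.00229). For these 3 genes the groups did not overlap, as held in this direction for 12.9% of all tested genes.

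Parp4, the vault PARP, rose from 684 ± 75.5 to 933 ± 195 (a log2 difference of 0.43, limma adjusted p = 0.0208). Its ranges overlapped, and the call was lost in 3 of 20 alternatives, among them without labelled Sirt1-deleted replicate 7 and without control replicate 2. Zc3hav1, the zinc-finger antiviral protein also counted as PARP13, measured 5882 ± 508 against 6332 ± 171 and did not pass (log2 difference -0.11, limma adjusted p = 0.162). By that number it lies between Parp12 and Parp14, but it was not counted in the interferon-inducible class. Of its 5 labelled Sirt1-deleted values, 3 were below the lowest control and 0 above the highest. Tiparp, the dioxin-inducible PARP, had a difference of -0.16 (limma adjusted p = 0.223).

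**Figure D4:**
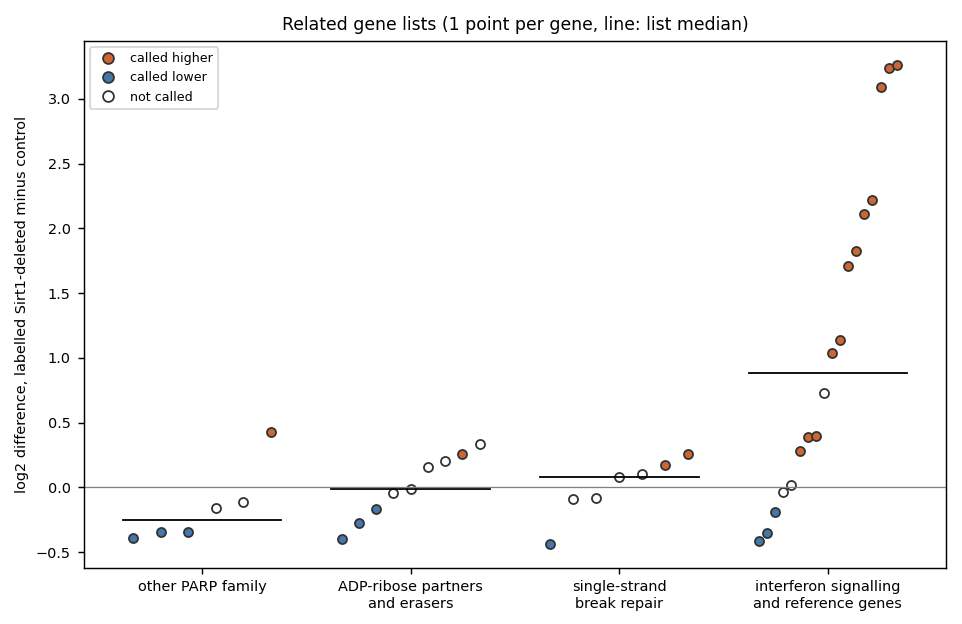
Log2 difference (vertical axis, labelled Sirt1-deleted minus control) of each tested gene in 4 related lists, with the list median as a line; filled points were called. The interferon list reaches 3.26 with a median of 0.88, while the medians of the other lists lie between -0.25 and 0.08.

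Genes that partner PARP proteins or remove ADP-ribose were read next. The table held 9 of the 10 listed symbols, since Adprhl2 and Adprs name the same gene, and of these 9 genes 1 rose, 3 fell and 5 did not pass (median -0.01). Over all tested genes 36.1% were called. Adprhl2, which encodes the hydrolase ARH3 that removes ADP-ribose from serine, rose from 1502 ± 58.8 to 1796 ± 102 (a log2 difference of 0.26, limma adjusted p = 0.00414). Rnf146, the ubiquitin ligase that recognises poly(ADP-ribose), fell from 1593 ± 62.8 to 1214 ± 161 (log2 difference -0.40, limma adjusted p = 0.00431), and Macrod1, a macrodomain hydrolase, fell from 784 ± 21.6 to 650.6 ± 52.0 (log2 difference -0.27, limma adjusted p = 0.00835). Adprh fell by 0.17 (limma adjusted p = 0.0418), a call lost in 13 of 20 alternatives, among them without labelled Sirt1-deleted replicate 7, 8 or 12 or control replicate 2, 3, 5 or 6. Parg, the main poly(ADP-ribose) glycohydrolase, measured 2486 ± 183 against 2501 ± 103, a log2 difference of -0.01 (95% interval -0.13 to 0.11, limma adjusted p = 0.902). Hpf1, the factor that directs PARP1 and PARP2 to serine, had a difference of 0.16 (limma adjusted p = 0.0829).

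Among 7 single-strand break repair genes that act with PARP1 and PARP2, 2 rose, 1 fell and 4 did not pass (median 0.08), beside 16.8% of all tested genes called higher and 19.4% called lower. Polb, the repair polymerase, rose from 954 ± 64.9 to 1139 ± 25.9 (a log2 difference of 0.26, limma adjusted p = 0.00628), with all labelled Sirt1-deleted samples above the controls. Lig3, the ligase of this pathway, fell from 2614 ± 269 to 1955 ± 363 (log2 difference -0.43, limma adjusted p = 0.0151). Xrcc1, the scaffold that poly(ADP-ribose) recruits, rose by 0.17 (limma adjusted p = 0.0461), a call lost in 12 of 20 alternatives, among them without labelled Sirt1-deleted replicate 8, 11 or 12 or any 1 control.

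Likeness to Parp14 and to Parp1 was described by the Pearson correlation of log2 values centred on each group's mean, over the 10 samples and 10751 other genes with a mean of at least 100. Such values share library and scaling, and no p is given. The 5 genes most like Parp14 were Xaf1 (r = 0.98), Sp140 (0.97), Oas3 (0.97), Ifi35 (0.96) and Rnf213 (0.95). Of these all but Sp140 also rose, with log2 differences of 0.86 to 1.63, while Sp140 had 0.18 (limma adjusted p = 0.335). Over all tested genes 16.8% were called higher. Parp12 stood at place 36 in this order (r = 0.90), Parp10 at place 178 (0.79) and Parp9 at place 310 (0.73). Parp3, of the DNA-damage class, came next at place 452 (0.69), ahead of Parp11 of the interferon-inducible class at place 607 (0.66). Replicate 10 carried much of this likeness: without it the r with Parp14 was 0.80 for Parp12, 0.63 for Parp9 and -0.06 for Parp10. It was 0.20 for Parp11 and -0.39 for Parp3. Parp2 and Parp8, at -0.31 and 0.33 with all samples, had 0.60 and 0.55 without replicate 10.

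The genes most like Parp1 were Eif3c (r = 0.99), Clpb (0.99), Zc3h18 (0.98), Ints9 (0.98) and Hdlbp (0.98). All but Clpb passed the test and fell, with log2 differences between -0.41 and -0.19, and Clpb had -0.31 (limma adjusted p = 0.0595). Over all tested genes 19.4% were called lower. Without control replicate 2, the highest in Parp1, these 5 correlations were between 0.98 and 0.99. Parp2 correlated with Parp1 at 0.61 and stood at place 2878 in this order, with 0.47 when labelled Sirt1-deleted replicate 10 was left out. The correlations of Parp10 and Parp6 with Parp1 were larger in size and of opposite sign, at -0.79 and -0.78.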

How the data were processed

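RNA from 10 spleens was sequenced, 5 per group. The deposited values are normalized counts, a signal that the authors made by dividing counts per gene by DESeq factors; kallisto 0.44.0, DESeq and build mm10 are named per the submitters' processing notes, and the annotation and gene filter are not given in the sources used here. The table holds 0 columns of other samples. Low values lay within 0.1 reads of a whole multiple for 68.0% to 74.0% of values, so whole reads were not recovered and no count model was used.

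Here log2(value + 1) was tested for the 15276 genes with a mean of at least 10, with limma 3.58.1 in R 4.3.3 (group as the only term, intensity trend, Benjamini-Hochberg, threshold 0.05), after a check on simulated data. Single genes were also compared by exact two-sided permutation over 252 assignments. Members and lists were chosen with earlier results of these data known, and 1 gene of the interferon list is not reported here. Named are all 10 members, genes of 4 related lists, and the 5 genes most like Parp14 and Parp1. Locations come from GENCODE M21 (GRCm38), promoter sequences from RefSeq (GRCm38.p6). Leaving samples out of the likeness was chosen after seeing the data.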

Additional observations from a re-analysis of the deposited data

Results flagged for a closer look

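For the 10 PARP genes and 40 related genes, each group of 5 samples was searched for a sample whose gap to its neighbour exceeded 0.71 of the group's range. This held in 10 of 100 sets, where chance at 1 in 20 gives 5 for independent sets. The sets share the same 10 samples and are not independent, so these counts do not measure an excess over chance. Parp14 measured 2177 in labelled Sirt1-deleted replicate 10, below 3411 to 3732 in the rest of that group. The same sample was the lowest for Irf7 (1043 against 1815 to 2098), Irf9 (1879 against 2638 to 2944) and Ifit1 (378 against 881 to 1074). Control replicate 2 was the highest control for Parp1, at 13348 against 10971 to 11399. It was also the highest control for Jak1 (9461 against 8336 to 8630), Ifngr2 (684 against 591 to 609) and Ifnar2 (1527 against 1461 to 1477). Hpf1 measured 5167 in labelled Sirt1-deleted replicate 12, above 4294 to 4528 elsewhere in that group. Control replicate 5 was the highest control for Ifit3, at 48.3 against 22.2 to 27.9. No cause was tested for any of these values.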

How the results depend on the processing

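No paired analysis was possible because no number in the sample titles occurs in both groups. Parp1, Parp9, Parp10, Parp12 and Parp14 kept direction and call, and Parp2 and Parp8 stayed not called, under the 20 alternatives run. Sample weights gave 2 DNA-damage calls (Parp3 higher) and 1 among Parp6 and Parp8 (Parp6 higher). Leaving out 1 sample gave 1 to 2 DNA-damage calls, 4 to 5 interferon-class calls and 0 to 1 for Parp6 and Parp8, the larger counts without labelled Sirt1-deleted replicate 10. Calls over all genes were 3659 with the exact rank-sum test and 4207 to 6259 without 1 sample. Of the calls, 46.4% were higher as deposited and 58.2% after upper-quartile rescaling, which moved the median from -0.00014 to 0.058. The sign turned under quantile normalization and upper-quartile rescaling for Dtx3l (0.019 and 0.013), Parg (0.057 and 0.048) and Tyk2 (0.024 and 0.022), and with sample weights for Tyk2 (0.028). Without 1 sample it turned in some fits for Dtx3l (-0.094 to 0.0069), Parg (-0.053 to 0.0092), Tyk2 (-0.081 to 0.020) and Ifnar2 (-0.019 to 0.039). None of these 4 genes was called. Lig3 and Stat2 lost their calls with the rank-sum test only. The cause was not tested. The effect of depth on low values could not be set, since reads are not recovered.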
